A study of Mus musculus with 10 samples.

Results

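The circular RNAs (circRNAs) described here are those of the Rpgrip1 locus of the mouse retina. They were chosen by position as all rows on the plus strand of chromosome 14 whose start and end both lie between 52730000 and 52784000 (mm9), which took 19 of the 9029 circRNAs in the deposited table. The window was drawn with the values of these circRNAs at all 5 ages known, so their levels over age are given as a description and not as a test. The nearest other listed plus-strand circRNAs of the chromosome lie 2872696 bases below and 2731957 bases above the window. They reached at most 2.5 and 8 counts. Inside the window the lowest start lies 8870 bases from the lower edge and the highest end 5871 bases from the upper edge, so moving either edge by less than these distances would not change the members. No minus-strand circRNA is listed in the window.

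Retinae of C57BL/6 mice, for which the labels name no allele or treatment, were sequenced at embryonic day 18.5 (E18.5) and postnatal days 1, 7, 14 and 30 (P1, P7, P14 and P30) from ribosome-depleted total RNA. There were 2 libraries at each age and 10 in all, and the series asks how circRNAs differ between these ages. The labels do not say which or how many animals a library came from. The number in the name of one E18.5 column is missing from the E18.5 labels, and this is called the unnumbered E18.5 library. Column totals ran from 6606.5 counts at E18.5 to 28658 in P30 replicate 3, and between 833 and 2800 circRNAs were listed in a library. The table names no gene, so markers of the retina or of its cell types could not be checked in it. Whole retina was sequenced, so fewer cells of a type and less RNA per cell cannot be told apart.

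A circRNA forms when the splice donor at the end of an exon is joined back to the splice acceptor at the start of the same or an upstream exon, in place of the next exon downstream. The closed molecule has no poly(A) tail and is resistant to exonucleases, so it is often long-lived. Several circRNAs can arise from one gene where an acceptor is joined to more than one donor. Rpgrip1 encodes the RPGR-interacting protein, which anchors RPGR, the retinitis pigmentosa GTPase regulator, at the connecting cilium between the inner and outer segments of rods and cones. Loss of the human protein is a cause of Leber congenital amaurosis, and mice without it lose photoreceptors.

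The name of the gene was checked by length. The annotation at hand is of GRCm38 and the table is of mm9, so no position was converted, and the length from start to end of each circRNA was compared with the length from the start of one exon to the end of the same or a later exon in every annotated mouse transcript (GENCODE M21). For Rpgrip1, 17 of the 19 lengths were equal to such an exon pair. The genes with the next highest number, Sspo and Ttn, had 7. Of the 17, 16 were found in the transcript Rpgrip1-202, which has 25 exons and whose numbering is used here, and every shared start or end fell on the same exon each time. The lengths were equal when the end minus the start was taken as the length, as in tables whose starts are counted from 0. Positions are printed as deposited. The 2 members with no equal length are described with the circRNAs of exon 20. All exons from 3 to 24 of this transcript lie wholly in its coding sequence, so the 16 circRNAs matched to it contain no untranslated sequence if their exons are joined as annotated. What lies between the ends of a circRNA is not recorded in the table, and the spliced lengths given here assume that every exon between the ends is kept.

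One acceptor stood out by the number of its partners. The acceptor of exon 5, at 52740147, was joined to 9 different donors, those of exons 6, 7, 9, 10, 11, 12, 20 and 23 and a further donor beyond exon 9. Among 4301 acceptors of position-named circRNAs above 0 in any library, none had more than 9 donors and 2, this one included, had 9, whereas 80.4% had 1. The most shared donor was that of exon 20, at 52770168, which was joined to 6 acceptors. Among 4733 donors, 1 had more and 3, this one included, had 6, whereas 86.9% had 1 acceptor. Only the circRNA of exons 5 to 20 used both ends, and 5 members used neither.

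The sequences below show what the members from exon 5 share and where they part. The shortest frequent circle holds exons 5 and 6, with 229 bases when the intron is removed. It is printed 5′ to 3′ from the transcript Rpgrip1-202 in GENCODE M21 (GRCm38, plus strand of chromosome 14), with exon 5 in capitals and exon 6 in lower case.
Exons 5 and 6: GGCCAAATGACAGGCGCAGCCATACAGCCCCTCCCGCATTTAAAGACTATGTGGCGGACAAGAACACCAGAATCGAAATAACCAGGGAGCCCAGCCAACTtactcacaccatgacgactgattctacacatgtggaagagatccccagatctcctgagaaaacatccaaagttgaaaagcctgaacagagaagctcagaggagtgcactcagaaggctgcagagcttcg
The back-splice junctions differ only on the donor side. In each of the next lines the last 20 bases of the donor exon are in lower case and the first 20 bases of exon 5 in capitals, in the order of the donors along the gene.
Exon 6 to exon 5: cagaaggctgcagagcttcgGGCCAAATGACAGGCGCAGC
Exon 7 to exon 5: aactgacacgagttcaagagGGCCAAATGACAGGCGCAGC
Exon 9 to exon 5: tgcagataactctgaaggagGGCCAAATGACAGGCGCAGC
Exon 9 of Rpgrip1-208 to exon 5: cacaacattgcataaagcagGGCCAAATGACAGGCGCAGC
Exon 10 to exon 5: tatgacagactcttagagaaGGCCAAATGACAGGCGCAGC

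**Figure D1:**
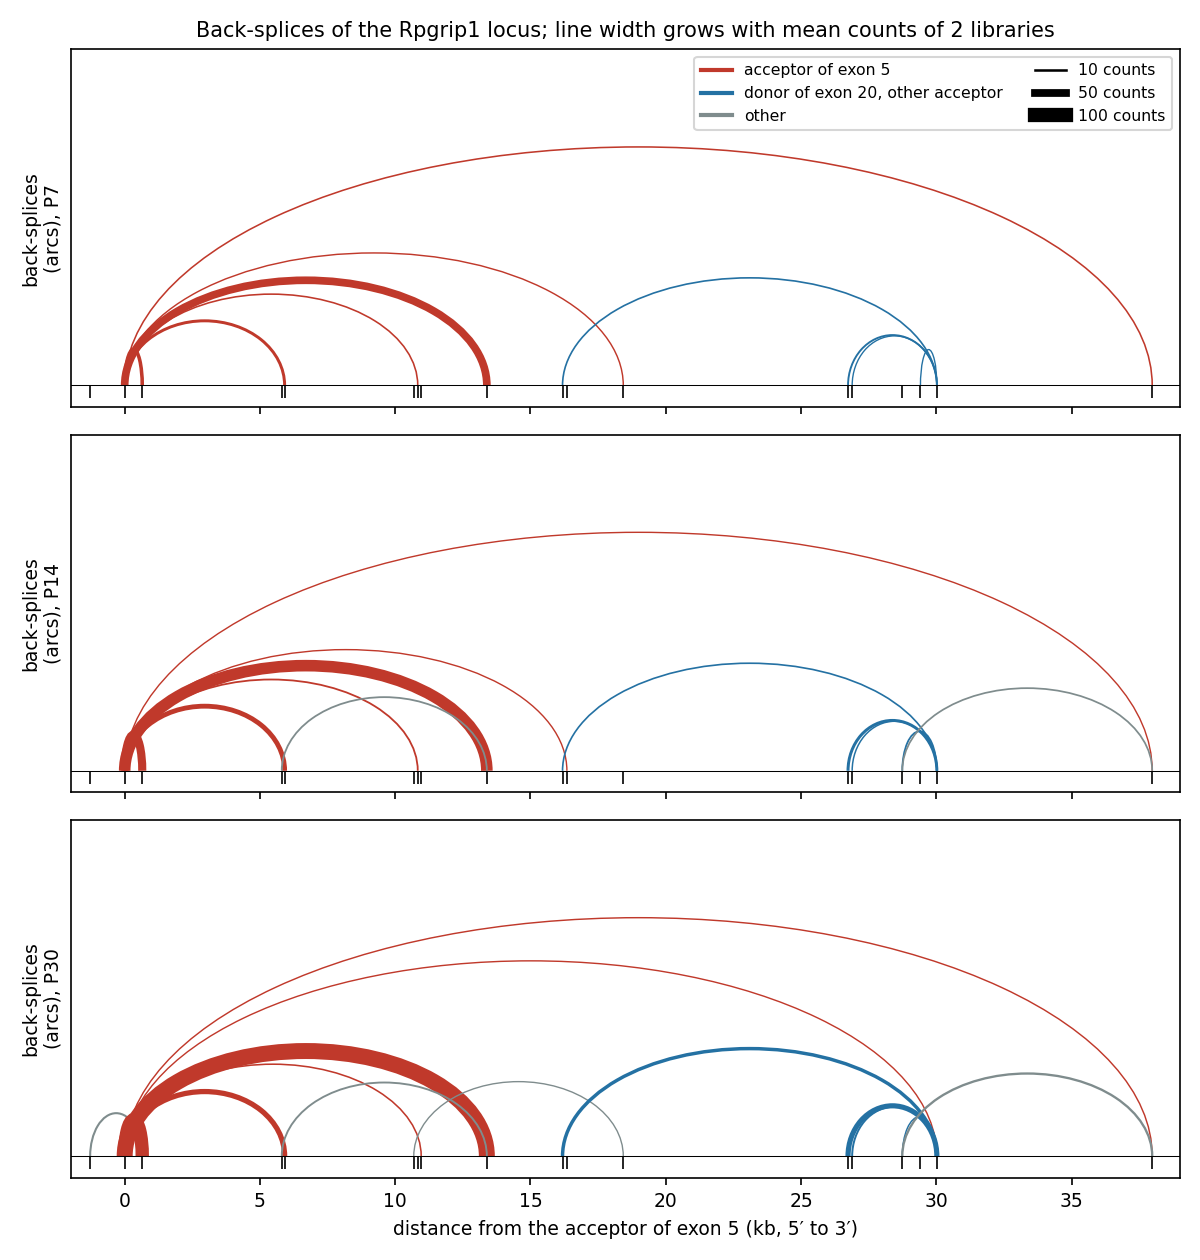
Back-splices of the Rpgrip1 locus at P7, P14 and P30. Each arc joins an acceptor to a donor, the x axis gives the distance in kb from the acceptor of exon 5, ticks mark all ends, and the line width grows with the mean counts of 2 libraries (red, acceptor of exon 5, blue, donor of exon 20 with another acceptor, grey, all others). Most of the width leaves the acceptor of exon 5 at each of the 3 ages. The arcs of exons 17 to 20 and of exons 5 to 10 are both thickest at P30, with means of 30 and 113 counts. Widths follow raw counts, the column totals were also highest at P30, and the part of depth was not tested.

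The locus was at 0 before birth, close to 0 at P1 and listed in all libraries from P7 on. None of the 19 circRNAs was above 0 in either E18.5 library or in P1 replicate 1, and P1 replicate 2 held 11 counts on 2 of them. The sum over the members was 124 and 71 counts in P7 replicates 1 and 2, 190.5 and 204 in P14 replicates 1 and 3, and 323 and 310.5 in P30 replicates 2 and 3. The values come in steps of 0.5 with none between 0 and 2, so a 0 means that no value reached that minimum and may also mean that the circRNA was not called. Since the column totals differ, levels are also given as counts per 1000000 listed circRNA counts (CPM). On this scale the P7 mean of the sum was 11231 ± 2362 CPM (SD, n = 2), the P14 mean 14073 ± 2980 (SD, n = 2) and the P30 mean 11164 ± 465 (SD, n = 2). Both P30 libraries, at 11493 and 10835 CPM, lay between the P7 libraries, at 12902 and 9561, and below the P14 libraries, at 16180 and 11966. The P1 libraries, at 0 and 1279 CPM, lay below all of these. Overlapping position-named circRNAs of a strand were also chained into clusters, and the mean CPM was summed over the members of each. By this sum Rpgrip1 was the highest of 3096 clusters at P7 and at P14 and ranked 3 at P30. Of the 975 circRNAs listed under a database ID none could be placed, so circRNAs of Rpgrip1 among them would be missing from these sums. Those of other loci are missing from the clusters in the same way, so the ranks hold among position-named circRNAs only.

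More isoforms were listed at later ages. At P1, 2 members were above 0 in at least 1 library, at P7 10, at P14 12 and at P30 14, while 5, 6 and 9 were above 0 in both libraries at P7, P14 and P30. By the age at which they were first listed, 2 members belonged to P1, 8 to P7, 4 to P14 and 4 to P30. The last one, of exons 9 and 10, was at 0 in all 10 libraries. The column totals and the number of circRNAs listed in the whole table were also highest in the P30 libraries, and the part of depth in the number of isoforms was not tested.

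The circRNA of exons 5 to 10 was the most abundant member in every library in which any was listed. It runs from 52740147 to 52753534 and holds 6 exons with a spliced length of 580 bases. It had 9 counts in P1 replicate 2 and 0 in P1 replicate 1, 57 and 42 counts in the P7 libraries, 62 and 97 in those of P14, and 116 and 110 in those of P30, in the order of the replicate numbers. Its P7 mean was 5793 ± 194 CPM (SD, n = 2), its P14 mean 5478 ± 300 (SD, n = 2) and its P30 mean 3983 ± 204 (SD, n = 2). Both P30 libraries lay below the libraries of P7 and P14 in CPM, although their raw counts were the highest. The order depends on the scaling. After trimmed mean of M-values (TMM) scaling among the tested circRNAs, the log2 difference of this circRNA was 0.40 from P7 to P14 and −0.13 from P14 to P30, beside medians of 0.13 and 0.01 over all 327 tested circRNAs. With the library totals over the tested circRNAs in place of TMM these medians were −0.19 and −0.10. From P7 to P14 the mean of this circRNA went down in CPM by column totals and up after TMM scaling.

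The circRNA of exons 5 and 6, from 52740147 to 52740796, had its highest mean in CPM at P14. It had 0 and 2 counts in P1 replicates 1 and 2, 22.5 and 13 in the P7 libraries, 48.5 and 57.5 in those of P14, and 96 and 90.5 in those of P30. Its P7 mean was 2046 ± 418 CPM (SD, n = 2), its P14 mean 3746 ± 528 (SD, n = 2) and its P30 mean 3287 ± 182 (SD, n = 2). Both P7 libraries lay below the libraries of P14 and P30, which overlapped. After TMM scaling its log2 difference was 1.34 from P7 to P14 and 0.15 from P14 to P30.

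Next among the members from this acceptor was the circRNA of exons 5 to 7. It runs from 52740147 to 52746059, with a spliced length of 335 bases. It was at 0 at P1 and had 18.5 and 8 counts in the P7 libraries, 33.5 and 21.5 in those of P14, and 28.5 and 33 in those of P30. Its P7 mean was 1501 ± 599 CPM (SD, n = 2), its P14 mean 2053 ± 1120 (SD, n = 2) and its P30 mean 1083 ± 97.2 (SD, n = 2). In CPM the P30 libraries overlapped with those of P7 and lay below both of P14, and of its 3 ages the P14 libraries were farthest apart.

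**Figure D2:**
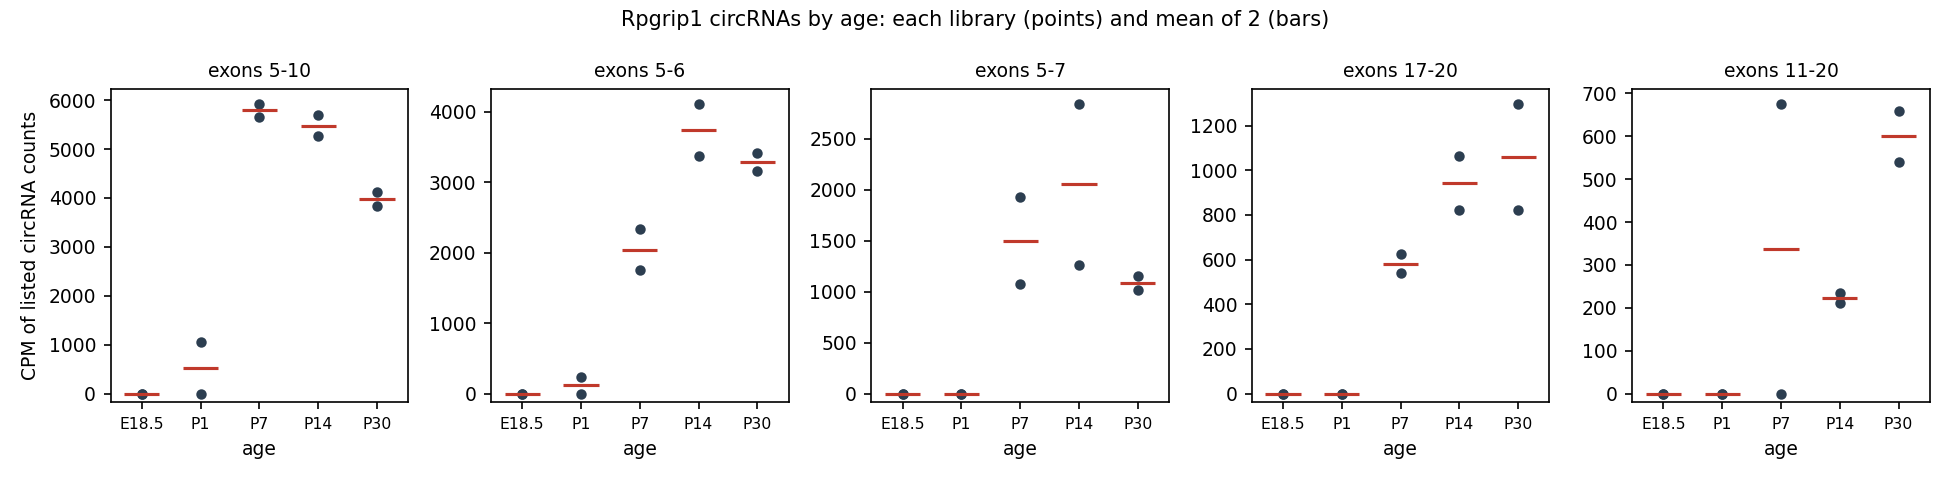
Levels of the 5 Rpgrip1 circRNAs with the highest mean at P30. The y axis gives CPM (counts per 1000000 listed circRNA counts) on a separate scale per panel, points are single libraries and bars the mean of 2 libraries at an age. The circRNA of exons 5 to 10 is at 5793 CPM at P7 and 3983 at P30, while that of exons 5 and 6 is at 2046 and 3287.

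Only these 3 members passed the low-count filter of the fit over all circRNAs, and they passed through the ages at which they were high. By edgeR's quasi-likelihood test with Benjamini-Hochberg adjustment at 0.05, all 3 were called higher at P30 than at E18.5, where 24.8% of the 327 tested circRNAs were called higher and 35.2% in either direction. Nothing was read from this or the next counts, because the locus had been chosen with its values at all 5 ages known. For P7 against P1, a comparison added after the data were seen, all 3 were called higher, beside 3.98% of all tested (4.28% in either direction). That count was 0 without P1 replicate 1, without P14 replicate 3 or without either P30 library, and 1 without P7 replicate 1. Over the whole table, 0 of 529 circRNAs were called higher without P1 replicate 1, 1 of 483 without P14 replicate 3, 1 of 489 and 1 of 488 without P30 replicate 2 or 3, and 3 of 490 without P7 replicate 1, against 13 of 327 with all libraries. For P14 against P7, 0 of the 3 were called by edgeR (1 at an unadjusted p under 0.05), beside 4.89% called higher and 5.5% in either direction over the table. There DESeq2 called 1 of the 3 higher, beside 21 of all 327 higher and 4 lower. For P30 against P14, 0 of the 3 were called by edgeR and 0 reached an unadjusted p under 0.05, beside 2.14% called higher and 2.75% in either direction. In this comparison DESeq2 called 0 of the 3, beside 7 of all 327 higher and 8 lower.

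The make-up of the locus can be read within a library, where a common scaling factor cancels. The minimum of 2 does not cancel, and a member below it adds nothing to the sum of the locus. The P7 libraries listed 9 and 6 members, those of P14 10 and 8 and those of P30 11 and 12, with the highest column totals at P30. What part the minimum and the depth have in the shares given below was not tested. The ratio of the exons 5 and 6 circRNA to the exons 5 to 10 circRNA was 0.395 and 0.310 in P7 replicates 1 and 2, 0.782 and 0.593 in P14 replicates 1 and 3, and 0.828 and 0.823 in P30 replicates 2 and 3. The 3 ages did not overlap and stood in the order of age, with means of 0.352 ± 0.0603 (SD, n = 2), 0.688 ± 0.134 (SD, n = 2) and 0.825 ± 0.00344 (SD, n = 2). Counting error was not computed for these ratios, and P14 replicate 1 lay close to the P30 libraries. The P30 mean was 2.34 times that of P7. This ratio was picked after the values were seen and comes from the libraries that chose the locus, so it was not tested.

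As a share of all counts of the locus, exons 5 and 6 made up 18.1% (95% Wilson interval 12.0 to 25.4) and 18.3% (11.02 to 28.8) in the P7 libraries. The share was 25.5% (19.6 to 31.9) and 28.2% (22.7 to 35.0) at P14, and 29.7% (25.0 to 34.9) and 29.1% (24.3 to 34.3) at P30. These intervals cover counting error only, on counts rounded to whole numbers, and those of single P7 and P30 libraries overlap. Exons 5 to 10 made up 46.0% and 59.2% in the P7 libraries, 32.5% and 47.5% in those of P14 and 35.9% and 35.4% in those of P30. The P30 shares lay below those of P7, while the P14 libraries spanned a wide range. The P30 Wilson intervals, 30.9 to 41.3 and 30.4 to 41.0, overlapped with that of P7 replicate 1, 37.4 to 54.7. Both lay below that of P7 replicate 2, 47.5 to 69.8. Exons 5 to 7 made up 14.9% and 11.3% in the P7 libraries, 17.6% and 10.5% in those of P14 and 8.82% and 10.6% in those of P30. The P30 shares lay below those of P7, with overlapping Wilson intervals, and overlapped with those of P14.

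**Figure D3:**
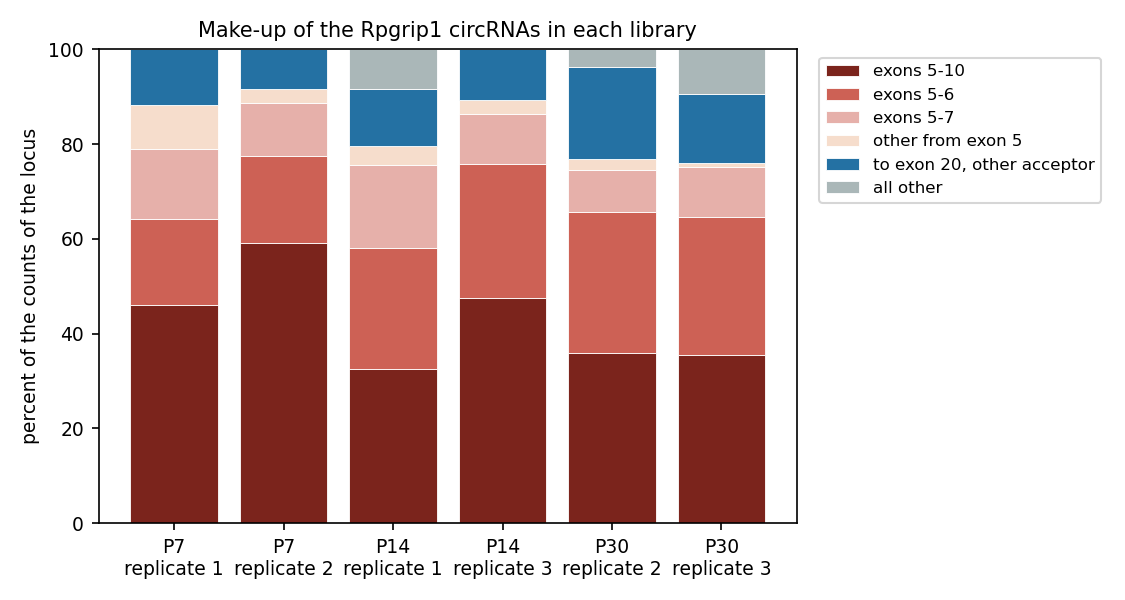
Make-up of the Rpgrip1 circRNAs in each library of P7, P14 and P30. Bars give the percent of the counts of the locus in 6 groups of members by the exons they join, with exons 5 to 20 among the others from exon 5. Exons 5 to 10 and exons 5 and 6 fill most of every bar, and the share of exons 5 and 6 is 18.1% and 18.3% in the P7 libraries and 29.7% and 29.1% in the P30 libraries.

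All members from the acceptor of exon 5 together held 88.3% and 91.5% of the counts of the locus in the P7 libraries, 79.5% and 89.2% at P14 and 76.9% and 76.0% at P30. At P30 this share was below every library of P7 and P14. The P30 Wilson intervals were 71.9 to 81.1 and 71.1 to 80.5. Both overlapped with that of P14 replicate 1, 73.7 to 85.1, and lay below those of P14 replicate 3 and both P7 libraries. The other 6 donors of this acceptor were used at low values. Exons 5 to 9 had 3.5 and 2 counts at P7, 5 and 3.5 at P14 and 0 in both P30 libraries. The P30 libraries listed 2.5 counts each of a circRNA that runs from 52740147 to 52751107, and that one was at 0 at all earlier ages. Its length was equal to that from exon 5 to exon 9 of Rpgrip1-208, a transcript annotated as a target of nonsense-mediated decay, whose exon 9 has 142 bases, shares its first 15 with the end of the usual exon 9 and ends 127 bases farther downstream. Both circRNAs stood close to the minimum of 2, where a listed value and a 0 differ by little. The members from exon 5 to exons 11, 12, 20 and 23 had at most 5 counts in a library, and the longest, of exons 5 to 23, spans 37982 bases.

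The donor of exon 20 marks a second group, in the downstream part of the gene. Its 6 members held 11.7% and 8.45% of the counts of the locus in the P7 libraries, 12.1% and 10.8% at P14, and 20.1% and 14.7% at P30, where both libraries were above all earlier ones. The P30 Wilson interval of 16.1 to 24.8 overlapped with those of 3 of the 4 earlier libraries, and that of 11.3 to 19.2 with all 4. The most abundant of this group begins at 52766885 and ends at 52770168. Its length was 1 base shorter than that from exon 17 to exon 20, which places its start 1 base inside exon 17, and the circRNAs of exons 11 to 20 and 18 to 20 share its end with lengths equal to the annotation. It had 6 and 4 counts in the P7 libraries, 12.5 and 14 in those of P14, and 36.5 and 23.5 in those of P30. Its P7 mean was 581 ± 60.6 CPM (SD, n = 2), its P14 mean 941 ± 170 (SD, n = 2) and its P30 mean 1059 ± 338 (SD, n = 2). In CPM both P7 libraries lay below the others, and P14 and P30 overlapped. Exons 11 to 20 had 6.5 and 0 counts in the P7 libraries, 2.5 and 4 in those of P14 and 18.5 and 15.5 in those of P30, so its mean went from 223 ± 15.8 CPM (SD, n = 2) at P14 to 600 ± 83.0 (SD, n = 2) at P30 with no overlap between these ages. At P7 its libraries lay on either side of both, and its P14 counts stood close to the minimum of 2. A further member from 52767038 to 52770168 matched no exon pair. Its start lies 153 bases downstream of the one near the start of exon 17, an exon of 343 bases. It had 2 and 0 counts in the P7 libraries, 0 and 4 in those of P14 and 7.5 and 3.5 in those of P30.

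Upstream of the main acceptor only 1 member was listed. The circRNA of exons 4 to 6, from 52738870 to 52740796, shares its donor with that of exons 5 and 6 and was above 0 only at P30, with 4 and 8.5 counts. At the same donor the acceptor of exon 5 gave 96 and 90.5 counts in these libraries. The member of exons 7 to 10 shares the donor of the most abundant member and had 8.5 and 0 counts at P14 and 0 and 10 at P30. Exons 18 to 23 had 7.5 and 0 counts at P14 and 8 and 8.5 at P30. The other 10 members did not reach a mean of 5 counts at any age, and none of them exceeded 8 counts in a library.

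**Figure D4:**
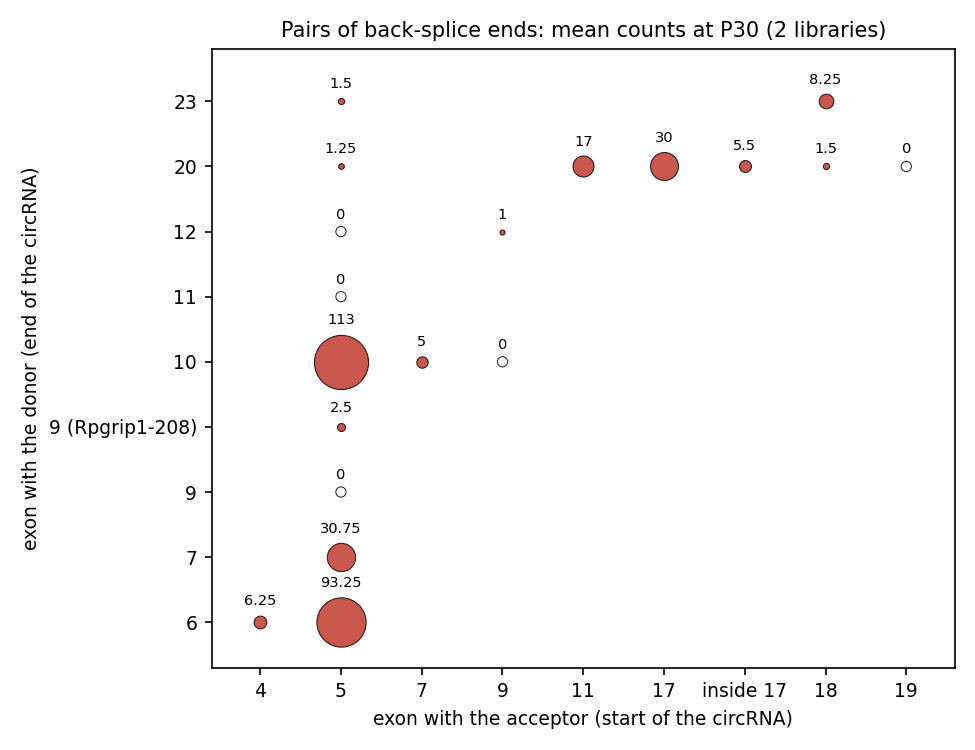
Pairs of acceptor and donor of the 19 Rpgrip1 circRNAs at P30. The x axis gives the exon with the acceptor and the y axis the exon with the donor, the area of a circle and the number above it give the mean counts of 2 libraries, and open circles are members at 0 at P30. The column of exon 5 holds 113 counts with exon 10 and 93.25 with exon 6, and the row of exon 20 reaches 30 counts with exon 17.

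At P30 the acceptor of exon 5 took 76.5% ± 0.657 (SD, n = 2) of the counts of the locus, while the most used donor, that of exon 10 with 3 members, took 37.3% ± 1.93 (SD, n = 2). By length, 2 members span under 1000 bases, 9 from 1000 to under 10000 and 8 from 10000 to under 50000. Their median span of 7744 bases lies beside one of 10735 bases for the other position-named circRNAs. Of the 58 values above 0 among the members, 28 end in 0.5, or 48.3%, against 45.6% of the values above 0 in the whole table.

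Other circRNAs of the table shared the pattern over the 10 libraries. Among 229 circRNAs outside the locus whose mean over libraries reached 10 counts, the Pearson correlation of log2(CPM + 1) with the sum of the locus was highest for mmu_circ_0000375 (r = 0.984) and for one from 145968748 to 145979653 of chromosome 2, plus strand (r = 0.983). Both had values in P1 replicate 2 and were at 0 in P1 replicate 1 and at E18.5, as the locus was. The next were on chromosome X from 81123385 to 81132572 on the plus strand (r = 0.884), on chromosome 6 from 125740258 to 125765617 on the plus strand (r = 0.882) and on chromosome 1 from 4187614 to 4221225 on the minus strand (r = 0.882). These 3 were at 0 in all E18.5 and P1 libraries. The median correlation of the 229 was 0.04. These values are a description over 10 libraries, in which the members share depth, and all 5 circRNAs stood at 0 in the 3 libraries in which the locus did. In CPM by column totals, the circRNA on chromosome 2 had means of 444 at P7, 2744 at P14 and 1434 at P30, beside 11231, 14073 and 11164 for the sum of the locus. None of the 5 was assigned to a gene.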

How the data were processed

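Estimated counts of circRNAs, with no normalization, were deposited by the authors as 1 table with 1 column per library. The submitters' processing notes name Trimmomatic and mm9. For the circRNA caller, the aligner, the steps of 0.5 and the minimum of 2, nothing is given in the sources used here. Columns were matched to libraries by name. The members and the measures reported were chosen with earlier results of these data known.

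For the fit over all circRNAs, values were rounded to whole numbers and circRNAs kept by filterByExpr, grouped by age, with a minimum count of 10 and a minimum total of 15. The minimum count is scaled to the column totals, so in raw counts it was higher in the deeper P30 libraries. The edgeR quasi-likelihood test (version 4.0.16, R 4.3.3, glmQLFit and glmQLFTest) used TMM factors and fitted age over all 10 libraries, with 5 residual degrees of freedom. Benjamini-Hochberg adjustment covered all 327 circRNAs kept. The labels do not name the animals, so p-values cover only the spread among these libraries. The fit was tested on simulated data. CPM used the column total as its denominator. Members with a mean of at least 5 counts at any age, or among the 5 highest at P30, are described in full. Alternatives included DESeq2 1.42.0, and 95% intervals are Wilson intervals. Tables and plots were made in Python 3.11.15 (pandas 2.3.3, matplotlib 3.10.9, scipy 1.17.1, numpy 2.4.6).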

Additional observations from a re-analysis of the deposited data

How the results depend on the processing

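Most members did not pass the low-count filter of the fit, and there were 2 libraries per age. Among those not tested was the circRNA of exons 17 to 20, with 36.5 and 23.5 counts in the P30 libraries. When a library was left out, its partner stood alone and was taken to vary like the other ages, and the filter kept more circRNAs. For the values that changed, the cause was not tested.

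The 3 members called higher at P30 than at E18.5 became 5 of 5 tested when a circRNA needed 10 counts in both libraries of any one age. In that fit 166 of all 496 tested were called higher. For P7 against P1, the fit of only these 2 ages called 0 of 2 tested and 0 of all 188. The calls of the main fit did not hold in every fit with 1 library left out. For P14 against P7 DESeq2 called 1 higher, beside 21 of all 327 higher and 4 lower. With a library left out, its age kept 1 library, so no count of calls is given here for those fits.

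In a fit of the 9 numbered libraries with a replicate block, 1 member was called at P30 against E18.5, beside 25 of all 523 called higher, and 0 at P7 against P1, beside 0 of all 523. No source says what the numbers stand for. Across circRNAs, the number 1 minus number 2 difference at P1 had a correlation of 0.016 with that at P7, so pairing was not shown.

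The ratio of the summed level of the locus at P30 to that at P14 was 0.793 in CPM, 1.01 with TMM library sizes and 1.61 in raw counts, and from 0.690 to 0.933 with 1 library left out. Its direction thus depends on the scaling. At P30 the share of the most abundant circRNA was 35.7%, and 36.9% among members listed in both libraries. It ran from 35.4% to 35.9% with 1 library left out, that of the donor of exon 10 from 35.9% to 38.6% and that of the acceptor of exon 5 from 76.0% to 76.9%. The P30 to P7 ratio of exons 5 and 6 over exons 5 to 10 ran from 2.09 to 2.67.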

Other observations

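Single libraries differed for some members. In 18 cases a member had at least 8 counts in 1 library of an age, and in 4 of them the other library of that age was at 0. These were exons 5 to 10 at P1 (9 and 0 counts), exons 7 to 10 at P14 (8.5 and 0) and at P30 (10 and 0), and exons 18 to 20 at P14 (8 and 0). The library at 0 was P1 replicate 1, P14 replicate 3, P30 replicate 2 and P14 replicate 3 in this order.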
